A study of Drosophila melanogaster with 18 samples.

Results

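The genes described here are Drosophila melanogaster genes that still carry only a CG number as their name in the deposited tables, meaning that they were predicted from the genome and had received no functional name, and whose transcripts were lower in Tudor-SN knockdown flies than in control flies at every oxygen level tested. They were chosen by 4 conditions on the expression values. The mean over 18 libraries was at least 1 FPKM (fragments per kilobase of transcript, scaled to library size). The difference between the group means of log2(FPKM + 1), knockdown minus control, was -0.3 or lower in normoxia, at 6% O2 and at 2% O2 alike, and all 3 knockdown values lay below all 3 control values at each level. The tables list 17658 genes. Of these, 6856 had a CG number, 3915 of those passed the FPKM minimum, and 109 met every condition (2.78%). The same values were met by 130 of 6006 otherwise named genes (2.16%), and by 2.41% of all 9921 genes that passed the minimum. The mirror-image rule, with knockdown values higher at all 3 levels, was met by 25 CG-numbered genes (0.639%) and by 0.464% of all genes. Because these values chose the genes, every knockdown against control value below is a description and carries no test.

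Messenger RNA was sequenced from whole adult females aged 1 to 5 days, reared at 25 °C on a mashed potato diet, with 10 flies pooled in each library and 3 replicate libraries in each of 6 groups. Knockdown flies were w;;Da-GAL4/UAS-Tudor-SN RNAi, a genotype in which the ubiquitous daughterless driver expresses a hairpin against Tudor-SN, a multidomain nuclease and RNA-binding protein. Control flies were w;;+/UAS-Tudor-SN RNAi, and so carried the same RNAi transgene without a driver. Each genotype was sampled in normoxia, after 6 h at 6% O2 and after 6 h at 2% O2. No flies carrying only the driver were analysed here, and the driver chromosome and the knockdown cannot be told apart. The genotypes write both transgenes in the third-chromosome position, a single RNAi line was used, and poly(A) selection preceded sequencing on a BGISEQ-500 instrument.

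Tudor-SN, the targeted gene, was checked first. It measured 18.8, 21.0 and 21.0 FPKM in knockdown flies in normoxia, 18.5, 14.2 and 16.2 FPKM at 6% O2 and 5.85, 5.31 and 4.92 FPKM at 2% O2. Control flies had 211, 226 and 214 FPKM in normoxia, 213, 215 and 223 FPKM at 6% O2 and 173, 161 and 164 FPKM at 2% O2. The genotypes did not overlap at any level. The FPKM values of a library summed to between 876999 and 1000923, and between 12525 and 12951 genes were above 0. The number of reads behind each library is not recoverable from FPKM, so that no counting interval is given. The third knockdown replicate at 2% O2 stood nearest to the control flies among the libraries of its group. Averaged over the 109 genes, log2(FPKM + 1) minus the 18-library mean was -0.28 in that library, against -0.44 and -0.57 in the first and second replicates, and it lay between 0.23 and 0.26 in the control flies at 2% O2. Leaving that library out of the rule gave 143 genes in place of 109.

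A CG number says only that a gene model exists, and the set is mixed in function. The reference annotation now gives another symbol to 16 of the 109 genes and lists 108 as protein coding. The exception, CG14117, is a pseudogene there. The genes whose function is known include enzymes of fatty acid metabolism. In insects very-long-chain fatty acids are built up by elongases from shorter acyl-CoA chains, and fatty acyl-CoA reductases turn such chains into fatty alcohols. In the oenocytes of the abdominal wall and in the epidermis these reactions feed the waxes and hydrocarbons that waterproof the cuticle.

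Together the 109 genes took up a smaller share of each library in knockdown flies. They held 0.256% to 0.360% of the summed FPKM in the 9 knockdown libraries, against 0.436% to 0.553% in the 9 control libraries. In normoxia the differences ran from -2.10 to -0.303 with a median of -0.62, against a median of -0.03 over the 3915 CG-numbered genes tested. Medians of -0.55 at 6% O2 and -0.58 at 2% O2 were seen for the same genes, against -0.02 and -0.04 over the CG-numbered genes tested. Levels at least 2-fold lower on the log2(FPKM + 1) scale were found for 15 genes in normoxia, 16 at 6% O2 and 13 at 2% O2. The difference was most negative in normoxia for 41 genes, at 6% O2 for 31 and at 2% O2 for 37. RNA was taken from whole flies, where fewer cells of a type and less RNA per cell cannot be told apart.

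**Figure D1:**
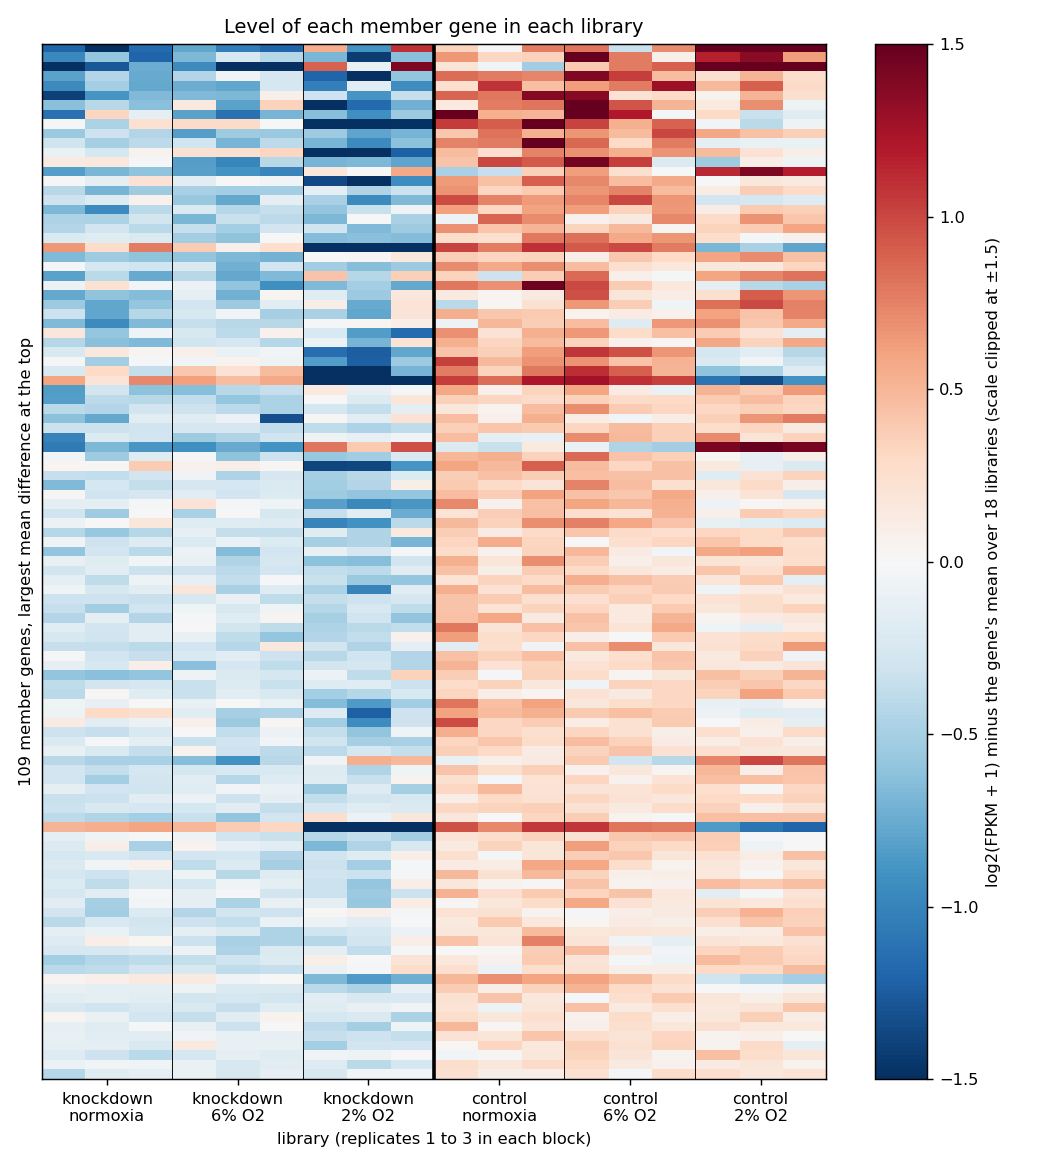
Level of each of the 109 genes in each of the 18 libraries, as log2(FPKM + 1) minus the gene's mean over all libraries, with genes from the largest mean difference at the top and 3 replicates per block. The 9 knockdown libraries stand left of the 9 control libraries. The rule chose these genes, so the blue left side and the red right side follow from it, whereas the columns at 2% O2 differ from the other columns in some genes only.

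Just inside the threshold stood CG7966, whose smallest difference was -0.303, CG5783 with -0.302 and CG13155 with -0.30027. CG31097 with -0.296, CG9485 with -0.295 and CG6785 with -0.293 stood just outside. Among the 3915 CG-numbered genes tested, 553 met the conditions in normoxia, 524 at 6% O2 and 435 at 2% O2, where 11.8%, 11.3% and 9.12% of all genes tested met them. Most genes of the set were of modest abundance. Their means ran from 1.33 to 597 FPKM with a median of 10.5 FPKM, against a median of 21.0 FPKM over the CG-numbered genes tested. Means below 5 FPKM were found for 37 of the 109 genes (33.9%), against 20.4% of the CG-numbered genes tested.

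The largest mean difference over the 3 oxygen levels belonged to CG34211, a short gene of 198 bp on chromosome arm 2R that overlaps the antisense RNA CR44130. It measured 17.1, 4.81 and 17.6 FPKM in normoxia, 23.1, 19.2 and 17.1 at 6% O2 and 59.7, 21.3 and 87.8 at 2% O2 in knockdown flies. In control flies CG34211 reached 51.3, 41 and 69.5 FPKM in normoxia, 71.5, 31.8 and 66.7 at 6% O2 and 127, 150.3 and 132 at 2% O2. The knockdown group means were 24.4%, 34.9% and 41.2% of the control means in normoxia, at 6% O2 and at 2% O2, and both genotypes had their highest mean at 2% O2. The second knockdown replicate was the lowest of its group in normoxia and at 2% O2. Whether reads of the antisense partner were kept apart is not stated, so that the 2 transcripts may not be separable here.

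CG43055 (chromosome arm 2L, 4411155 to 4411824, plus strand, build BDGP6) lies over CG15431 on the other strand and was next in size. It measured 3.94, 5.47 and 3.2 FPKM in normoxia, 5.05, 7.14 and 6.17 at 6% O2 and 4.98, 2.58 and 5.26 at 2% O2 in knockdown flies. Levels of 14.2, 10.9 and 11.2 FPKM in normoxia, 26.4, 15.6 and 9.18 at 6% O2 and 20.6, 23.6 and 13.9 at 2% O2 were found in control flies. The difference was widest at 2% O2, where the knockdown mean was 22.0% of the control mean. CG43773 (2L, 4007690 to 4007984, plus strand) is another gene under 300 bp. Its levels in knockdown flies were 0, 1.61 and 2.78 FPKM in normoxia, 2.25, 1.09 and 1.11 at 6% O2 and 10.7, 4.86 and 15.7 at 2% O2, with the first normoxia replicate listed at 0. Its control levels were 6.24, 5.12 and 3.39 FPKM in normoxia, 7.29, 9.83 and 10.7 at 6% O2 and 17.2, 20 and 19.5 at 2% O2. Like CG34211, it was higher at 2% O2 in both genotypes.

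CG5107 (3R, 25505191 to 25505931, plus strand) was both among the most lowered and among the most abundant genes. It measured 68, 87.5 and 70.5 FPKM in normoxia, 87.7, 115 and 100 at 6% O2 and 51.3, 36 and 78.8 at 2% O2 in knockdown flies. The control libraries held 215, 205 and 199 FPKM in normoxia, 315, 246 and 165 at 6% O2 and 142, 170.1 and 144 at 2% O2. Knockdown means were 36.5%, 41.6% and 36.4% of control means, nearly the same share at each level. CG12708 (X, 15675476 to 15677737, plus strand) was similarly even at a lower level. Its values were 2.12, 3.23 and 2.55 FPKM in normoxia, 2.6, 2.51 and 4.04 at 6% O2 and 1.98, 4.38 and 2.16 at 2% O2 in knockdown flies. They were 6.18, 11.8 and 7.26 FPKM in normoxia, 8.37, 9.37 and 13.7 at 6% O2 and 7.46, 10.3 and 6.4 at 2% O2 in control flies, of which the knockdown means were 31.3%, 29.2% and 35.3%.

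For CG15282 (2L, 14712471 to 14713298, plus strand) the gap was widest in normoxia. Knockdown flies had 0.285, 0.836 and 1.14 FPKM in normoxia, 1.15, 1.13 and 2.58 at 6% O2 and 1.73, 0.844 and 1.66 at 2% O2. In control flies it reached 5.2, 4.89 and 7.79 FPKM in normoxia, 7.77, 2.95 and 3.18 at 6% O2 and 2.53, 3.84 and 3.01 at 2% O2. The knockdown mean was 12.7% of the control mean in normoxia and 45.2% at 2% O2, and the first control replicate at 6% O2 stood above the rest of its group. CG5770, on 2R, had its widest gap at 6% O2. It measured 0.41, 2.84 and 1.78 FPKM in normoxia, 0.751, 0.411 and 0.891 at 6% O2 and 0.967, 0.618 and 1.1 at 2% O2 in knockdown flies. Its control values were 7.79, 3.43 and 3.35 FPKM in normoxia, 12.6, 6.05 and 1.99 at 6% O2 and 2.77, 1.43 and 1.71 at 2% O2. The control libraries at 6% O2 spread widely, and the third of them lay nearest to the knockdown libraries. CG34291 (3R, 26425290 to 26425781, minus strand) overlaps the antisense RNA CR31084. Its knockdown values were 6.78, 8.04 and 6.81 FPKM in normoxia, 12.3, 5.93 and 14.3 at 6% O2 and 2.3, 4.38 and 6.29 at 2% O2. The values 12.4, 19.4 and 20.1 FPKM in normoxia, 40.5, 22.1 and 16.2 at 6% O2 and 12.3, 18.5 and 10.4 at 2% O2 were found in control flies. At 6% O2 the highest knockdown library and the lowest control library were close.

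**Figure D2:**
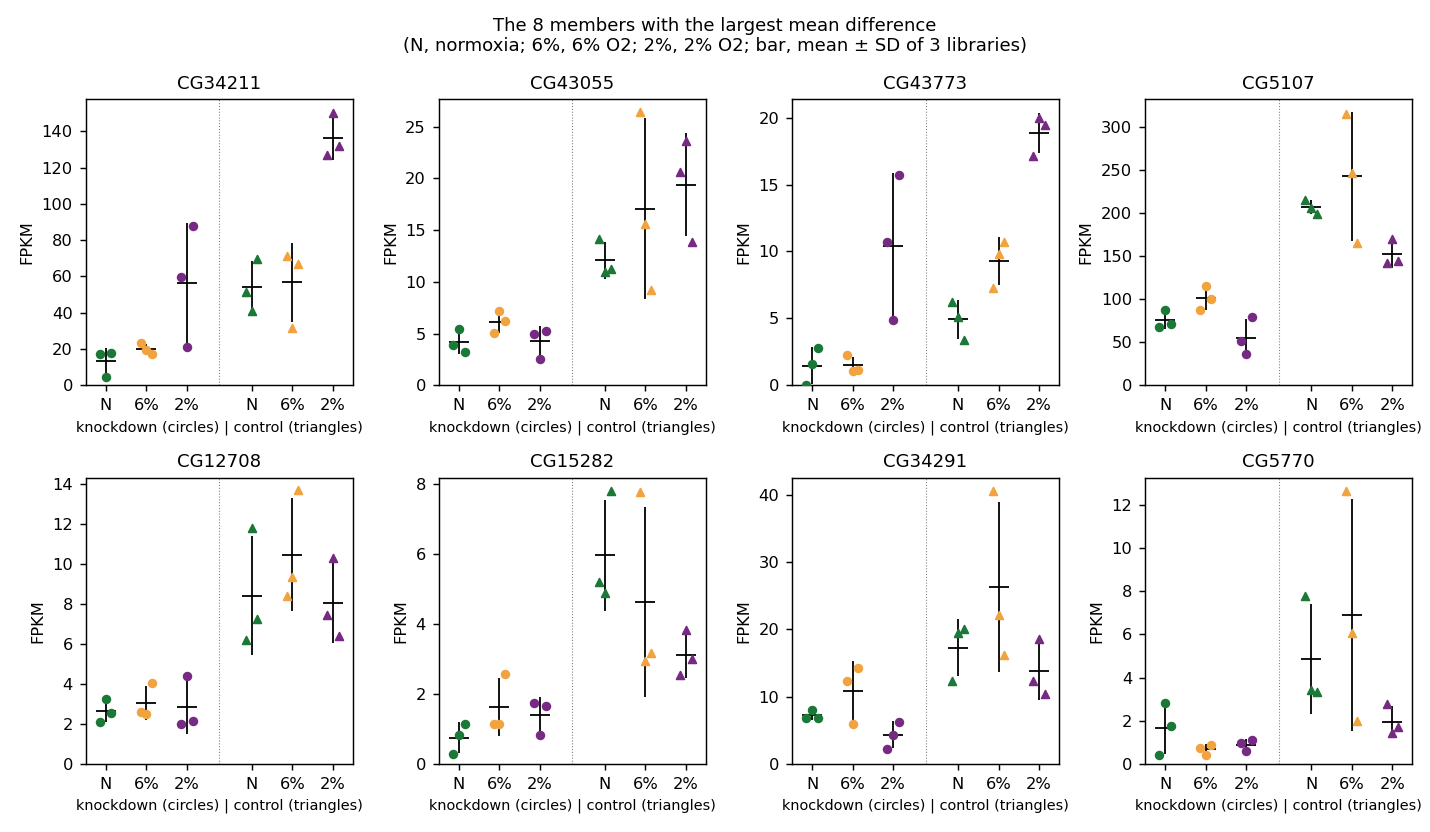
FPKM of the 8 genes with the most negative mean difference, in 3 libraries per group, with knockdown flies (circles) left of control flies (triangles) and normoxia, 6% O2 and 2% O2 from left to right. Crossbars give the mean and vertical bars the SD of 3 libraries. CG34211 and CG43773 are highest at 2% O2 in both genotypes, whereas CG12708 and CG43055 keep a similar level across oxygen in knockdown flies.

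Next to CG34291, and separated from it by 184 bp on the same strand, lies CG6503 (3R, 26424698 to 26425105, minus strand), the most abundant gene of the set, whose RefSeq synonym pncr007:3R records an earlier listing as a putative non-coding RNA. It measured 379.9, 322 and 369.9 FPKM in normoxia, 454, 380.1 and 495 at 6% O2 and 593, 328 and 640.4 at 2% O2 in knockdown flies. Control flies held 419, 566 and 653 FPKM in normoxia, 869.8, 719 and 531 at 6% O2 and 983, 1103 and 935 at 2% O2 of the same transcript. The knockdown mean was 65.5%, 62.7% and 51.7% of the control mean. CG34172 (2L, 2192525 to 2197912, minus strand), now named COX7AL2, encodes a relative of subunit 7A of cytochrome c oxidase, the last complex of the respiratory chain. Its level was 411, 299 and 381 FPKM in normoxia, 438, 502 and 366 at 6% O2 and 368, 301 and 591 at 2% O2 in knockdown flies. In control flies it was 750, 680.2 and 676 FPKM in normoxia, 536, 563 and 541 at 6% O2 and 786, 694 and 866 at 2% O2. The gap was narrowest at 6% O2, where the knockdown mean was 79.6% of the control mean, against 51.9% in normoxia and 53.7% at 2% O2.

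CG13315 (3L, 9096877 to 9097494, plus strand) followed in abundance. Its levels were 140.3, 184 and 159.7 FPKM in normoxia, 155, 174 and 158 at 6% O2 and 512, 385 and 573 at 2% O2 in knockdown flies. Its control levels were 254, 233 and 325 FPKM in normoxia, 274, 215 and 204 at 6% O2 and 785, 914 and 789 at 2% O2. Both genotypes had their 3 highest values at 2% O2. CG10863 (3L, 3941008 to 3942465, minus strand) encodes an aldo-keto reductase, an enzyme that reduces carbonyl groups with NADPH, and overlaps the antisense RNA CR43916. It had 99.8, 101 and 111 FPKM in normoxia, 118, 101 and 113 at 6% O2 and 96.6, 102 and 106 at 2% O2 in knockdown flies. The same gene had 135, 155 and 148 FPKM in normoxia, 156, 146 and 141 at 6% O2 and 155, 154 and 160.2 at 2% O2 in control flies. CG5532, which overlaps sona on 2R, had 106, 103 and 102 FPKM in normoxia, 110.5, 106 and 105 at 6% O2 and 90.2, 92.1 and 89.5 at 2% O2 in knockdown flies. Its control values were 133, 130.3 and 153 FPKM in normoxia, 137, 131 and 144 at 6% O2 and 118, 121 and 115 at 2% O2. The values of CG5532 were lowest at 2% O2 in each genotype. Replicates of both genes differed little, and their knockdown means were between 65.0% and 77.8% of the control means.

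Genes with a known role were found throughout the set. Among those tied to mitochondria, CG14757, a succinate dehydrogenase assembly factor, averaged 41.1 ± 3.63, 48.8 ± 3.04 and 55.5 ± 16.9 FPKM in knockdown flies in normoxia, at 6% O2 and at 2% O2, against 83.9 ± 6.05, 68.0 ± 8.38 and 87.2 ± 8.34 FPKM in control flies (SD, n = 3 each). CG3961, a long-chain acyl-CoA synthetase that activates fatty acids, averaged 13.4 ± 0.812, 15.5 ± 1.59 and 17.1 ± 3.78 FPKM in knockdown flies, against 22.9 ± 2.00, 24 ± 1.46 and 24.3 ± 0.990 FPKM in control flies. CG6910, now Miox, encodes myo-inositol oxygenase, which opens the inositol ring. Its knockdown means were 75.6%, 64.7% and 61.8% of its control means. CG2187, whose RefSeq synonym dSLC5A6 names it after a vitamin transporter, had knockdown means of 48.7%, 37.0% and 69.1% of the control means. CG34120, now ldd, encodes a transporter of the ABCA family, and its knockdown means were 67.3%, 69.4% and 63.5% of the control means.

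Fatty acyl-CoA reductases formed the largest group of lipid enzymes in the set. Families were drawn up after the genes of the set were known, so their counts are descriptions. Of 14 tested genes of the reductase family 4 were in the set, CG10097, CG13091 (now Sgp), CG4020 and CG17562, and the otherwise named FarO had values that met the same rule. CG10097 (3R, 12390166 to 12395980, minus strand) overlaps its own paralogue CG10096 and Sol1, and how the authors assigned reads shared by paralogues is not given in the sources used here. It measured 70.9, 53.4 and 77.7 FPKM in normoxia, 72.2, 64.8 and 69.5 at 6% O2 and 9.08, 7.95 and 14.6 at 2% O2 in knockdown flies. Its level was 96.9, 84.2 and 109.7 FPKM in normoxia, 113, 101 and 96.1 at 6% O2 and 21.3, 17.9 and 24.3 at 2% O2 in control flies. In both genotypes the 3 libraries at 2% O2 lay far below the 6 others.

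CG13091 (2L, 8519690 to 8521809, plus strand) had 55.8, 40.9 and 66.9 FPKM in normoxia, 70, 69.7 and 57.1 at 6% O2 and 14.7, 10.8 and 19.8 at 2% O2 in knockdown flies. The control libraries gave 119, 108 and 164 FPKM in normoxia, 116, 83 and 107 at 6% O2 and 55.6, 42.8 and 53.9 at 2% O2. The knockdown mean was 41.8%, 64.3% and 29.7% of the control mean. CG4020 (X, 5905746 to 5908001, plus strand) measured 24.7, 26.5 and 29.8 FPKM in normoxia, 23.1, 23.1 and 22.9 at 6% O2 and 12.7, 13.7 and 19.7 at 2% O2 in knockdown flies. In control flies it measured 37.4, 33.8 and 43.6 FPKM in normoxia, 45.1, 39.9 and 35.7 at 6% O2 and 24.3, 23.3 and 22.9 at 2% O2. CG17562 (3R, 16615309 to 16617154, plus strand) measured 10.8, 9.7 and 12.8 FPKM in normoxia, 9.52, 10.8 and 10.5 at 6% O2 and 3.67, 2.95 and 5.25 at 2% O2 in knockdown flies. Its control values were 17.4, 15.2 and 21.2 FPKM in normoxia, 18.6, 15.4 and 16.7 at 6% O2 and 10.9, 12.4 and 12.1 at 2% O2. All 4 reductases were lowest at 2% O2 in each genotype, and the knockdown values at 2% O2 were the lowest of all.

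The elongases CG6660 and CG9459 were the only 2 of 15 tested genes of that family in the set. CG6660 (3R, 22923352 to 22924525, plus strand) lies within the gene klg on the same strand. It measured 23.5, 24 and 24.9 FPKM in normoxia, 23.1, 21.4 and 20.4 at 6% O2 and 4.27, 3.78 and 4.92 at 2% O2 in knockdown flies. Control flies had 32.3, 27.3 and 34.9 FPKM in normoxia, 35, 28.8 and 28.3 at 6% O2 and 8.52, 7.02 and 6.43 at 2% O2. Normoxia and 6% O2 gave like values in each genotype, and the 2% O2 values were separate from them. CG9459 (3R, 9817428 to 9818395, minus strand) had 10.4, 9.2 and 11.6 FPKM in normoxia, 13.3, 13.4 and 14.2 at 6% O2 and 3.08, 2.51 and 4.22 at 2% O2 in knockdown flies. Its control libraries held 16, 13.5 and 19.5 FPKM in normoxia, 18.7, 16.7 and 18.5 at 6% O2 and 16, 13.2 and 12 at 2% O2. Low values at 2% O2 were seen in the knockdown libraries, whereas the control libraries at 2% O2 overlapped those in normoxia.

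**Figure D3:**
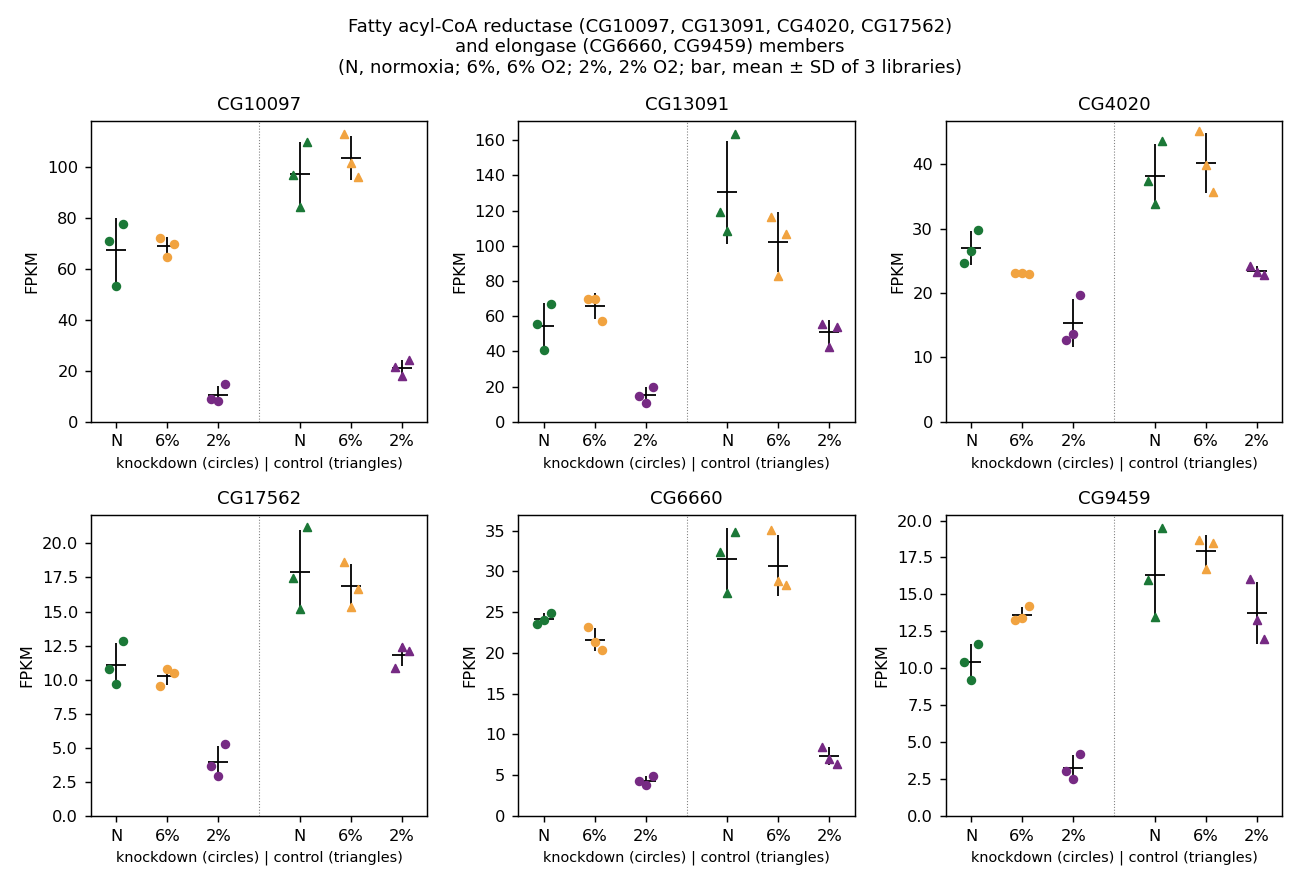
FPKM of the fatty acyl-CoA reductases CG10097, CG13091, CG4020 and CG17562 and the elongases CG6660 and CG9459 in 3 libraries per group, with knockdown flies (circles) left of control flies (triangles). Crossbars give the mean and vertical bars the SD of 3 libraries. All 6 genes have their lowest group mean at 2% O2 in knockdown flies, and CG9459 alone overlaps its normoxia values at 2% O2 in control flies.

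A further family was the ecdysteroid kinase-like genes, relatives of the enzymes that inactivate moulting hormone by phosphorylation in other insects. Of 45 tested genes 5 were in the set, CG1561 (now pkm), CG7135, CG9498, CG11878 and CG10550, and 30 of the 45 had lower knockdown means at all 3 levels, whatever the size, which 26.2% of all genes tested and 30.0% of the CG-numbered genes tested also had. The 30 include the 5 genes of the set, which were lower by the rule, and no test of this count was made. CG7135 averaged 1.11 ± 0.203, 1.18 ± 0.0181 and 1.5 ± 0.278 FPKM in knockdown flies, against 3.26 ± 0.551, 3.75 ± 0.430 and 2.68 ± 0.325 FPKM in control flies (SD, n = 3 each). For CG11878 the knockdown means were 55.7%, 49.8% and 67.6% of the control means, and for CG9498 they were 69.6%, 72.6% and 75.5%. Of 14 tested neprilysin-like genes, which encode zinc metallopeptidases, CG42370 (now Nepl6) and CG13650 (now Nepl16) were in the set. Of 11 tested juvenile hormone binding protein-like genes 1 was in it, CG5867 (now Jhbp14). Lower knockdown means at all 3 levels, whatever the size, were found for 6 of these 14 and 5 of these 11 genes. The like counts were 5 of the 14 reductases and 8 of the 15 elongases. These counts also include the genes of the set and were not tested.

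The response of these genes to low oxygen within each genotype did not enter the rule and was tested with limma over all 9921 genes, with Benjamini-Hochberg adjusted p under 0.05 as the threshold. The same libraries served the rule and this test, but the contrast is another. At 2% O2 against normoxia 20 of the 109 genes were higher in knockdown flies (18.3%) and 21 were lower (19.3%), where 28.5% of all genes tested were higher and 27.0% were lower. The median log2 change was -0.02 over the 109 genes and 0.00223 over all genes. In control flies 8 genes were higher (7.34%) and 23 were lower (21.1%), where 15.4% of all genes were higher and 14.7% were lower. Here the median was -0.09 over the 109 genes and -0.01 over all genes. Read against these backgrounds, the share of lower genes in control flies stood above that of all genes and the 3 other shares stood below it, and no test of these differences was made. Quantile normalisation changed the balance, to 15 higher and 40 lower genes in knockdown flies and to 5 higher and 27 lower genes in control flies. Under that setting 2209 of all 9921 genes were higher and 3519 lower in knockdown flies, and 1475 higher and 1686 lower in control flies. The balance of all genes thus moved as well, and the share of lower genes in knockdown flies then stood slightly above that of all genes. With FPKM as deposited, without scaling, 18 genes were higher and 29 lower in knockdown flies, against 2347 and 3332 of all genes. Leaving out the third knockdown replicate at 2% O2 gave 16 higher and 21 lower genes, against 2533 and 2294 of all genes. With any 1 library left out 16 of the 20 higher and 14 of the 21 lower genes of knockdown flies were still called, as were 5 of the 8 higher and 15 of the 23 lower genes of control flies.

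The 130 otherwise named genes with the same knockdown pattern gave similar shares. At 2% O2 23 were higher and 31 lower in knockdown flies, and 9 were higher and 26 lower in control flies. Of the 109 CG-numbered genes 17 were lower in both genotypes, 7 were higher in both and none was called in opposite directions. Another 17 were called in knockdown flies alone, 13 higher and 4 lower, and 7 in control flies alone, 1 higher and 6 lower. The remaining 61 passed in neither genotype. These classes were not counted over all genes, so they show no trait particular to the set. All genes tested were also called more often in knockdown flies, 28.5% higher and 27.0% lower, against 15.4% and 14.7% in control flies. A call in 1 genotype does not show that the response differed between genotypes, and that difference was not tested because it is made of the values that chose the genes.

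**Figure D4:**
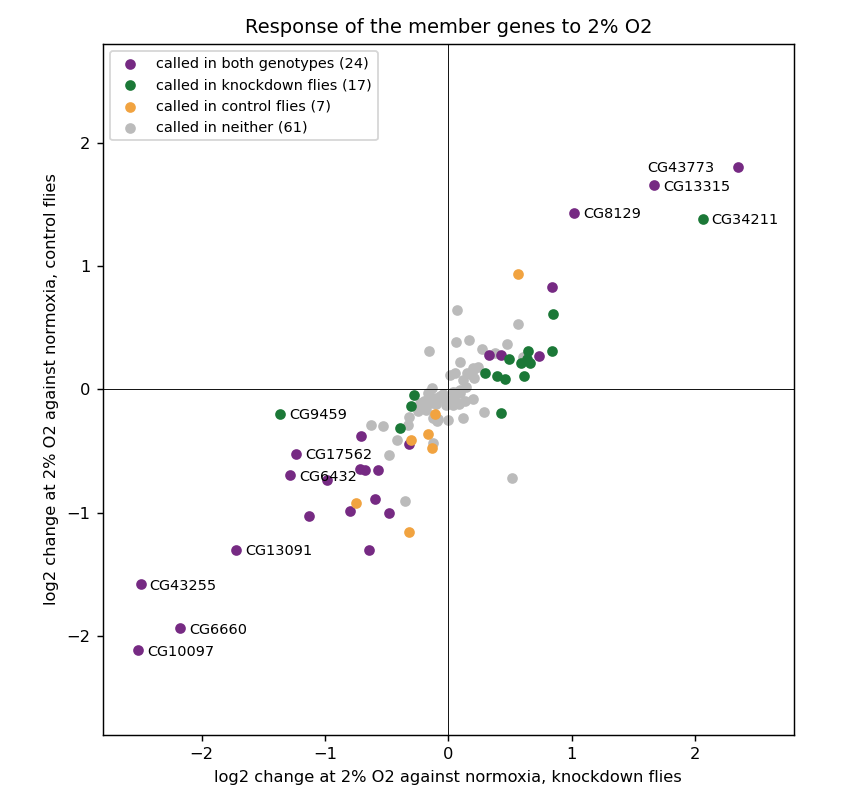
Log2 change at 2% O2 against normoxia of the 109 genes, in knockdown flies on the horizontal axis and in control flies on the vertical axis, from limma on log2(scaled FPKM + 1) with 3 libraries per group. Colours mark genes with an adjusted p under 0.05 in both genotypes (24), in knockdown flies alone (17), in control flies alone (7) or in neither (61). The reductases CG10097, CG13091 and CG17562 and the elongase CG6660 lie low in both genotypes, and CG43773, CG13315 and CG8129 lie high in both.

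The smallest adjusted p among the lowered genes belonged to the elongase CG6660 in both genotypes, followed by the reductase CG10097. CG6660 fell by 2.17 ± 0.12 on the log2 scale at 2% O2 in knockdown flies (SE, limma adjusted p = 1.73e-09) and by 1.94 ± 0.12 in control flies (adjusted p = 2.74e-08). CG10097 fell by 2.51 ± 0.20 in knockdown flies (adjusted p = 1.37e-07) and by 2.11 ± 0.20 in control flies (adjusted p = 3.73e-06). CG13091 changed by -1.72 ± 0.24 in knockdown flies (adjusted p = 3.37e-05) and by -1.30 ± 0.24 in control flies (adjusted p = 0.000924). CG4020 changed by -0.72 ± 0.14 in knockdown flies (adjusted p = 0.000479) and by -0.64 ± 0.14 in control flies (adjusted p = 0.00267), and both calls held with any 1 library left out. CG17562 changed by -1.23 ± 0.16 in knockdown flies (adjusted p = 8.66e-06) and by -0.52 ± 0.16 in control flies (adjusted p = 0.0195), where the control call was lost without the third normoxia replicate (adjusted p = 0.0944) and without the first 2% O2 replicate. All 4 reductases of the set were therefore lower at 2% O2 in both genotypes, with that limit for CG17562. Among the 10 other tested reductases 6 were higher and 3 lower in knockdown flies, and 5 were higher and 2 lower in control flies. Of all genes tested 28.5% were higher and 27.0% lower in knockdown flies, and 15.4% and 14.7% in control flies.

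CG9459 fell in knockdown flies, by 1.37 ± 0.15 on the log2 scale (SE, limma adjusted p = 2.17e-06), and had a change of -0.20 ± 0.15 in control flies that did not pass (adjusted p = 0.356). Its knockdown response minus its control response was -1.17 ± 0.21 (SE), given here without a test. Of the 13 elongases outside the set 7 were lower and 1 higher in knockdown flies, and 6 were lower and 1 higher in control flies. The shares of all genes were 27.0% lower and 28.5% higher in knockdown flies, and 14.7% and 15.4% in control flies. CG9458 and CG8534 were likewise called lower in knockdown flies alone, with changes of -1.75 ± 0.24 and -1.09 ± 0.13. Their changes in control flies, -0.37 ± 0.24 and 0.19 ± 0.13, did not pass. Baldspot was called lower in control flies alone. A fall called in knockdown flies alone was therefore not particular to CG9459. CG3961, the acyl-CoA synthetase, had a change of 0.39 ± 0.13 in knockdown flies (limma adjusted p = 0.0147), a call lost without the third 2% O2 replicate (adjusted p = 0.0925), and of 0.11 ± 0.13 in control flies.

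Lower levels at 2% O2 in both genotypes were also found for CG43255 and CG42370. CG43255 (X, 8923960 to 8924449, plus strand) lies within rdgA on the same strand. At 2% O2 it had 6.00, 2.95 and 6.26 FPKM in knockdown flies, against 35.9, 27.4 and 38.9 FPKM in normoxia. In control flies it had 13.6, 15.8 and 12.6 FPKM at 2% O2, against 46.4, 39.0 and 49.3 FPKM in normoxia. The log2 change was -2.49 ± 0.20 in knockdown flies (SE, limma adjusted p = 1.56e-07) and was -1.58 ± 0.20 in control flies (adjusted p = 4.58e-05), with no overlap between oxygen levels in either genotype. CG42370, the neprilysin-like Nepl6 (2L, 6383435 to 6385512, minus strand), lies within DIP-epsilon. It had 0.769, 0.564 and 0.699 FPKM at 2% O2 in knockdown flies, against 1.90, 1.97 and 2.11 FPKM in normoxia, a log2 change of -0.79 ± 0.10 (limma adjusted p = 1.05e-05). Control flies had 1.29, 1.09 and 0.975 FPKM at 2% O2, against 2.97, 3.54 and 3.24 FPKM in normoxia, a log2 change of -0.98 ± 0.10 (adjusted p = 5.87e-06). These levels are low, and a change on the log2(FPKM + 1) scale understates the change of so low a transcript.

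A further 9 genes were lower in both genotypes, CG2187, CG13155, CG14120, CG43630, CG7916, CG6432, CG9123, CG13458 and CG40298. Their log2 changes ran from -1.29 for CG6432 to -0.32 for CG9123 in knockdown flies, and from -1.30 for CG13155 to -0.44 for CG9123 in control flies. The knockdown call of CG13155 was lost in 6 of 13 alternatives, and the control call of CG40298 in 5 of 13. Knockdown calls of CG2187, CG9123 and CG43630 were lost in 2 of 14 each, and that of CG40298 in 1 of 13. CG6432 had 3.89, 3.91 and 5.88 FPKM at 2% O2 in knockdown flies, against 12, 11.9 and 15.6 FPKM in normoxia, and 13, 10.7 and 9.95 FPKM at 2% O2 in control flies, against 18.2, 16.8 and 22.7 FPKM in normoxia. Its values at 2% O2 and in normoxia did not overlap in either genotype. In control flies alone CG13059, CG17192, CG15202, CG14984, CG44286 and CG5532 were called lower, with changes from -1.16 for CG13059 to -0.20 for CG5532. Of these CG13059 alone was called under every alternative. The call of CG17192 was lost in 6 of 13 alternatives and that of CG44286 in 5 of 14. CG32187, CG7730 and CG2006 joined CG9459 as lower in knockdown flies alone, with changes of -0.39, -0.28 and -0.30. The call of CG32187 was lost in 8 of 13 alternatives, among them all 6 with a library left out. Those of CG2006 and CG7730 were lost in 4 and 2 of 14, whereas that of CG9459 held in all.

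Among the ecdysteroid kinase-like genes of the set CG1561 fell at 2% O2 in knockdown flies, by 0.70 ± 0.13 on the log2 scale (limma adjusted p = 0.000231). Its change in control flies was -0.38 ± 0.13 (adjusted p = 0.0338), and this call was lost in 7 of 14 alternatives. CG11878 had a change of 0.85 ± 0.28 in knockdown flies (adjusted p = 0.0178), which was lost when any of 4 libraries was left out. Of all 45 tested genes of that family 21 were higher and 8 lower in knockdown flies, and 15 were higher and 6 lower in control flies, where the shares of all genes were 28.5% and 27.0% in knockdown flies and 15.4% and 14.7% in control flies. Without the second control normoxia replicate the control count became 8 higher and 10 lower.

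The smallest adjusted p among the raised genes belonged to CG13315 in both genotypes. Its log2 change at 2% O2 was 1.67 ± 0.17 in knockdown flies (SE, limma adjusted p = 1.41e-06) and was 1.66 ± 0.17 in control flies (adjusted p = 7.12e-06), an about equal rise from a lower level in knockdown flies. CG8129 (3R, 9365398 to 9367763, plus strand), now Srr, encodes serine racemase, which converts L-serine to D-serine, and it overlaps FER on the other strand. At 2% O2 it had 19.6, 17.4 and 26.3 FPKM in knockdown flies, against 9.45, 10.5 and 11.2 FPKM in normoxia, a log2 change of 1.02 ± 0.21 (adjusted p = 0.00085). Control flies had 39.6, 47.8 and 41.0 FPKM at 2% O2, against 12.2, 13.5 and 22.6 FPKM in normoxia, a log2 change of 1.43 ± 0.21 (adjusted p = 0.00015).

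CG3999 (3R, 10251518 to 10255268, plus strand) encodes the P protein of the glycine cleavage system, the mitochondrial enzyme complex that breaks down glycine. It had 1.35, 2.56 and 2.45 FPKM at 2% O2 in knockdown flies, against 0.827, 0.741 and 0.744 FPKM in normoxia. In control flies it had 3.03, 3.89 and 3.24 FPKM at 2% O2, against 1.26, 1.57 and 1.68 FPKM in normoxia. The log2 change was 0.84 ± 0.20 in knockdown flies (limma adjusted p = 0.00208) and was 0.83 ± 0.20 in control flies (adjusted p = 0.00509). CG43773 had a log2 change of 2.35 ± 0.43 in knockdown flies (adjusted p = 0.000401) and of 1.80 ± 0.43 in control flies (adjusted p = 0.00617), and with a pseudocount of 0.1 the control call was lost (adjusted p = 0.12). CG34211 had a change of 2.06 ± 0.53 in knockdown flies (adjusted p = 0.00486), which was lost when only those 2 groups entered the fit (adjusted p = 0.0772), and of 1.38 ± 0.53 in control flies (adjusted p = 0.0656).

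CG14117 (3L, 13008285 to 13009450, plus strand), the pseudogene, overlaps Cul6 on the other strand. It had 11.2, 11.3 and 12.5 FPKM at 2% O2 in knockdown flies, against 6.64, 7.39 and 7 FPKM in normoxia, a log2 change of 0.74 ± 0.09 (limma adjusted p = 3.29e-06). In control flies it had 17.3, 18.9 and 15.4 FPKM at 2% O2, against 14.7, 14.2 and 14.3 FPKM in normoxia, and the change of 0.27 ± 0.09 (adjusted p = 0.0266) was lost in 5 of 14 alternatives. CG15209 (X, 10842205 to 10842995, plus strand) overlaps sbr and CG32669. Its values were 16, 13.8 and 18.3 FPKM at 2% O2 in knockdown flies, against 8.58, 11.9 and 11.7 FPKM in normoxia, a log2 change of 0.62 ± 0.11 (adjusted p = 0.000259). It held 21.2, 22.3 and 20.5 FPKM at 2% O2 in control flies, against 20.7, 20.2 and 19.7 FPKM in normoxia, a change of 0.11 ± 0.11 that did not pass (adjusted p = 0.521). CG5783 (2L, 18156043 to 18157162, plus strand) overlaps JMJD4. It had 3.25, 2.98 and 3.55 FPKM at 2% O2 in knockdown flies, against 1.80, 1.98 and 2.06 FPKM in normoxia, a log2 change of 0.59 ± 0.11 (adjusted p = 0.000263). Control flies had 4.56, 4.23 and 3.95 FPKM at 2% O2, against 3.47, 3.17 and 4.25 FPKM in normoxia, a change of 0.21 ± 0.11 that did not pass (adjusted p = 0.16). Of the values given here, those of CG15209 and CG5783 were lowest in knockdown flies in normoxia.

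Besides CG34211, CG11878, CG15209, CG3961 and CG5783, the genes called higher in knockdown flies alone were CG34208, CG14566, CG14757, CG44008, CG33178, CG5646, CG4842 and CG13124. The log2 changes of these last 8 ran from 0.30 for CG4842 to 0.84 for CG14566. Among them the call of CG14757 was lost in 8 of 14 alternatives and that of CG34208 in 7 of 14. The others held under every alternative. CG6752 (now Kpc1, a ubiquitin ligase) and CG11125 were higher in both genotypes, by 0.42 and 0.33 in knockdown flies and by 0.28 each in control flies, and their calls in both genotypes were lost under quantile normalisation. The control call of CG11125 was lost in 7 of 14 alternatives and that of CG6752 in 5 of 14. Their knockdown calls were lost in 1 of 14 each.

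CG6503, the most abundant gene, was the only gene called higher in control flies alone. Its log2 change at 2% O2 was 0.57 ± 0.25 in knockdown flies (SE, limma adjusted p = 0.0649) and was 0.93 ± 0.25 in control flies (adjusted p = 0.0108). The second knockdown replicate at 2% O2, with 328 FPKM, lay below the other replicates of its group with 593 and 640 FPKM.

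At 6% O2 against normoxia no gene of the set passed in either genotype. In knockdown flies 0.585% of all genes tested were higher and 0.0403% were lower, and in control flies the share was 0 in each direction. At an unadjusted limma p under 0.05 there were 9 genes of the set in each genotype. Of all 9921 genes 746 had such a p in knockdown flies and 1329 in control flies. With only the 2 groups compared, limma called 40 of all genes higher in knockdown flies and 2 in control flies. Of the set it called 1 gene higher in knockdown flies and 0 in control flies. That gene, named here after its values were seen, was CG33178, with 32.2, 29.0 and 28.3 FPKM at 6% O2 in knockdown flies, against 22.3, 21.8 and 22.2 FPKM in normoxia. The median log2 change of the 109 genes was 0.01 in knockdown flies and -0.01 in control flies.

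Arm 3L held 34 of the 109 genes (31.2%), against 19.1% of the CG-numbered genes tested. A like share, 8 of 25 (32%), was found for the CG-numbered genes that were higher in knockdown flies. For the 130 otherwise named lower genes it was 23.1%, against 18.8% of the otherwise named genes tested. Arms X and 2L held 15 genes each (13.8%), against 17.7% and 17.9% of the CG-numbered genes tested. Arm 2R held 19 (17.4%), against 19.3%, and 3R held 26 (23.9%), against 25.6%. Chromosome 3 as a whole, on which the genotypes place both transgenes, held 60 of the 109 genes (55.0%), against 44.8% of the CG-numbered genes tested. For the 130 otherwise named genes with the same values the share on chromosome 3 was 43.8%, against 42.4% of the otherwise named genes tested, and it was 44.0% for the 25 CG-numbered genes that were higher. These shares are descriptions, with no test, and the part of the driver chromosome in any of them was not tested.

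**Figure D5:**
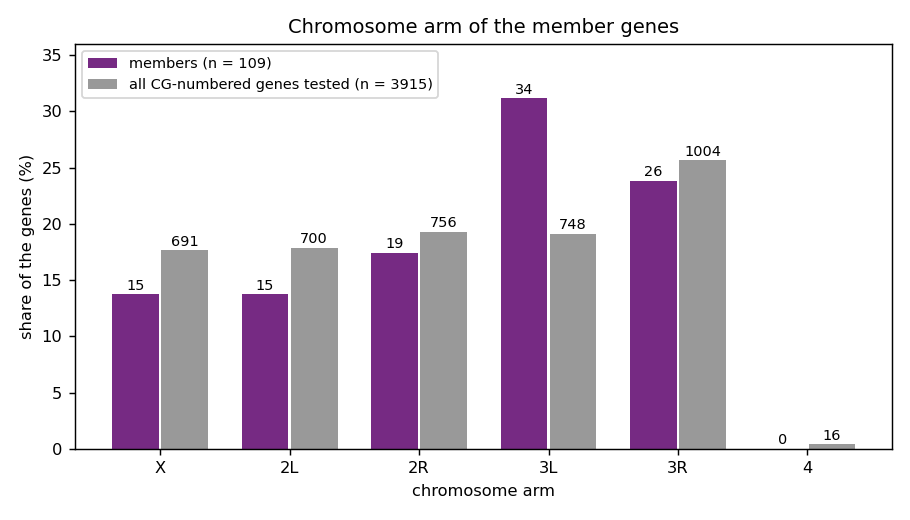
Share of the 109 genes (left bar of each pair) and of the 3915 CG-numbered genes tested (right bar) on each chromosome arm, in percent, with the number of genes above each bar. Arm 3L holds 34 of the 109 genes, and the 4th chromosome holds 0 of them.

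Within 20 kb of another gene of the set lay 14 genes, in 7 pairs. CG5773 and CG5770 on 2R are 301 bp apart on the same strand. CG5773 measured 39.5, 49.1 and 45 FPKM in normoxia, 56.5, 37.8 and 48.9 at 6% O2 and 55.5, 50.2 and 59 at 2% O2 in knockdown flies. Its control values were 73, 62.6 and 75.9 FPKM in normoxia, 84.9, 65.3 and 58.3 at 6% O2 and 89.5, 92.5 and 72.7 at 2% O2. Of the 2 neighbours CG5773 was the more abundant by far and the less lowered, with knockdown means at 63.2%, 68.7% and 64.6% of the control means. CG8993 (3L, 2372199 to 2372876, plus strand), which encodes a thioredoxin-like protein and overlaps mRpL23, and CG15877 (3L, 2376484 to 2377556, minus strand) are 3607 bp apart. CG8993 measured 73.4, 78.1 and 77.1 FPKM in normoxia, 76.5, 82 and 71.7 at 6% O2 and 77.1, 80.7 and 79 at 2% O2 in knockdown flies. It held 114, 116 and 118 FPKM in normoxia, 108, 101 and 111 at 6% O2 and 117, 96.9 and 105 at 2% O2 in control flies. CG15877 measured 32.3, 32.8 and 32.2 FPKM in normoxia, 29.6, 30 and 29.6 at 6% O2 and 32, 30.5 and 30.7 at 2% O2 in knockdown flies. Its level was 42.5, 48.7 and 40.3 FPKM in normoxia, 35.6, 43 and 47.6 at 6% O2 and 41, 38.3 and 41.1 at 2% O2 in control flies. Both were steady across oxygen, with knockdown means between 65.8% and 77.4% of the control means.

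CG10863, described above, and CG14984 (3L, 3951193 to 3952550, minus strand) are 8727 bp apart with no tested gene between them. CG14984 measured 14, 12.9 and 14.2 FPKM in normoxia, 16, 13 and 12 at 6% O2 and 11.3, 11.8 and 12.1 at 2% O2 in knockdown flies. In control flies its level was 28.3, 18.4 and 22 FPKM in normoxia, 21.7, 18.5 and 24.1 at 6% O2 and 15.3, 14.4 and 17.3 at 2% O2. Its gap narrowed at 2% O2, where the knockdown mean was 75.0% of the control mean, against 59.9% in normoxia. The other pairs were CG6503 with CG34291, CG6910 with CG5626 (now Tsen54, a subunit of the tRNA splicing endonuclease), CG2006 with CG2010, and CG1503 with CG34120. The median gene span was 1620 bp, against 2105 bp over the CG-numbered genes tested, and 28 genes spanned under 1000 bp (25.7%), against 15.8%. A span under 300 bp was found for 3 genes (2.75%), CG34211, CG43630 and CG43773, against 0.255% of the CG-numbered genes tested. Overlap with another gene was found for 50 genes (45.9%), against 50.6%, and overlap with a gene on the other strand for 39 (35.8%), against 42.9%.

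Marker genes of 13 tissue and cell type lists were also summed and tested between genotypes. The lists hold only otherwise named genes, so no CG-numbered gene of the set could be on them. Some lists were lower in the knockdown libraries and others were higher or mixed. The summed level of 17 cuticle and epidermis genes was 151 to 193 FPKM in normoxia, 162 to 207 FPKM at 6% O2 and 133 to 214 FPKM at 2% O2 in knockdown flies, against 267 to 376, 246 to 299 and 216 to 263 FPKM in control flies. The genotypes did not overlap in this sum at any level. Of its 12 genes tested 2 were lower in knockdown flies in normoxia, 1 at 6% O2 and 2 at 2% O2 by limma, and none was higher, where 10.1%, 12.6% and 8.50% of all genes were lower and 5.90%, 12.0% and 11.7% were higher. Muscle genes, 21 in number, summed to 5412 to 6351, 4911 to 6091 and 5742 to 8637 FPKM in knockdown flies, against 7377 to 11045, 6868 to 7264 and 8493 to 10180 FPKM in control flies. Of these 7 were lower in knockdown flies in normoxia, 5 at 6% O2 and 2 at 2% O2, none was higher, and the sums overlapped at 2% O2 only.

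Of 27 tested midgut digestion genes 11 were lower in knockdown flies in normoxia, 7 at 6% O2 and 1 at 2% O2, and 2 were higher, at 2% O2. Their sums were 5258 to 7345, 5912 to 5952 and 5249 to 6790 FPKM in knockdown flies, against 7214 to 9203, 6071 to 10347 and 5517 to 5964 FPKM in control flies. Photoreceptor genes were lower for 9, 12 and 5 of 19 and higher for none, with sums of 1900 to 2167, 1834 to 2093 and 2476 to 2598 FPKM in knockdown flies, against 2097 to 2793, 2354 to 2849 and 2692 to 2926 FPKM in control flies. None of the 19 eggshell genes was lower by the test and 1 was higher, at 2% O2, although their sum was 1696 to 3185 FPKM in knockdown flies at 6% O2, against 4213 to 8608 FPKM in control flies, and overlapped at the other levels. Female germline genes summed to 4034 to 4168, 3867 to 4067 and 3273 to 3932 FPKM in knockdown flies, against 3444 to 3960, 3258 to 3671 and 3481 to 3601 FPKM in control flies, with 4, 5 and 2 of 19 higher and 1, 1 and 2 lower. Male accessory gland and testis genes, of which 3 were at 0 in every library, summed to at most 5.76 FPKM in knockdown flies and 6.24 FPKM in control flies. No marker of the other lists was at 0 in every library.

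Fat body genes summed to 2397 to 3287, 1874 to 2660 and 3180 to 5089 FPKM in knockdown flies, against 1639 to 3075, 2312 to 3923 and 2362 to 3095 FPKM in control flies. Of 10 tested 2 were lower in normoxia and 1 at 6% O2, whereas 4 were higher and none lower at 2% O2. The 6 spermatheca and female tract genes matched summed to 72.9 to 76.1, 65.9 to 71.9 and 68.0 to 74.1 FPKM in knockdown flies, against 99.9 to 109, 86.0 to 97.5 and 86.8 to 91.9 FPKM in control flies. These sums did not overlap at any level, while the 5 genes tested gave 2, 1 and 1 higher and 2, 1 and 2 lower. Neuron genes were lower for 2, 3 and 1 of 17 and higher for none, and Malpighian tubule genes were lower for 1, 2 and 1 of 13 and higher for 1, at 2% O2. Of 8 haemocyte genes 2 were lower in normoxia, and 1 was higher in normoxia and 1 at 6% O2. Of 10 antennal odorant binding genes 1 was lower at 6% O2 and 1 at 2% O2, and 1 was higher in normoxia and 1 at 2% O2. The part of tissue make-up in the lower levels of the 109 genes was not tested.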

How the data were processed

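The authors deposited 1 table of gene-level FPKM values per library, made with Cufflinks on the BDGP6 build, and TopHat2 and HTSeq are named as well, per the submitters' processing notes, without versions. Normalisation beyond FPKM, read depth and strand-specificity are not given in the sources used here. The 18 libraries fall into 6 groups of 3 by genotype and oxygen, per the labels. Genes were matched on their identifiers. Coordinates are those of the deposited files with the start raised by 1 base to count from 1.

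The rule that defines the 109 genes was applied to FPKM as deposited. For tests, each library was scaled by its median-of-ratios factor (0.947 to 1.04, from 9068 genes above 1 FPKM in every library). Genes whose mean reached 1 FPKM were kept (9921). A model of log2(scaled FPKM + 1) with a mean for each of the 6 groups was fitted in limma 3.58.1 (R 4.3.3), with a moderated, robust variance trend. P-values were adjusted by the Benjamini-Hochberg method over all genes within each contrast, and a gene was called at an adjusted p under 0.05. Errors of log2 changes are standard errors and the other errors are SDs of 3 libraries. Replicates are separate pools of flies so far as the labels say, and p-values measure the spread between these pools. The fit was tested on simulated data.

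The 109 genes, the families and the marker lists were chosen with earlier results of these data known. The ecdysteroid kinase-like genes were recognised by their RefSeq synonyms. Values in every library are given for the 8 genes with the most negative mean difference, the 6 most abundant and 3 neighbouring pairs. The same holds for the reductases and elongases of the set, which were added after their values were seen. For the 4 genes with the smallest adjusted p per oxygen contrast and direction, at least the values in normoxia and at 2% O2 are given. Neighbours within 20 kb, spans and overlaps come from the Ensembl 115 annotation. Alternatives were other pseudocounts, filters, normalisations and thresholds, a replicate block, a fit to 2 groups, and each library left out. No protein or genome sequence was used here.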

Additional observations from a re-analysis of the deposited data

Results flagged for a closer look

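CG8768 was the only gene of the set whose values at 6% O2 and in normoxia were ordered oppositely in the 2 genotypes without overlap. The genotypes stood nearer to each other at 6% O2. How many of all genes tested had such an ordering was not counted. It had 22.7, 23.2 and 23.3 FPKM at 6% O2 in knockdown flies, against 22.5, 21.1 and 22.6 FPKM in normoxia. Control flies had 28.7, 31.0 and 28.2 FPKM at 6% O2, against 37.2, 33.1 and 35.3 FPKM in normoxia. Every knockdown library at 6% O2 lay above every knockdown library in normoxia, and every control library at 6% O2 lay below every control library in normoxia. The log2 change was 0.06 ± 0.10 in knockdown flies, within its SE, and -0.24 ± 0.10 in control flies (SE). The knockdown response minus the control response was 0.30 on the log2 scale, a difference that was not tested. In limma neither response passed by itself, with an adjusted p of 1 in knockdown flies and 0.342 in control flies.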

How the results depend on the processing

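The number of genes that met the rule, 109, became 62 with a pseudocount of 5, 72 with a mean of at least 5 FPKM, 42 with a difference of -0.5 or lower and 184 with overlap of the groups allowed. With 1 library left out it ranged from 103 to 143. At 2% O2 in knockdown flies the count of higher genes, 20, ranged from 16 to 25 with 1 library left out. The count of lower genes, 21, then ranged from 17 to 21. It was 40 under quantile normalisation, where 3519 of all 9921 genes were lower. In control flies the count of higher genes, 8, was 5 under quantile normalisation, where 1475 of all 9921 genes were higher. With 1 library left out it ranged from 5 to 9, the low end without the second 2% O2 replicate. The count of lower genes, 23, then ranged from 16 to 25. The causes were not tested. At 6% O2 in knockdown flies the count of higher genes became 1 with only the 2 groups compared and was otherwise 0. Of the genes called at 2% O2, 13 of 20 higher and 13 of 21 lower genes in knockdown flies, and 4 of 8 higher and 15 of 23 lower genes in control flies, were called under every alternative tried. The ecdysteroid kinase-like calls in control flies, 15 higher and 6 lower, became 8 higher and 10 lower without the second normoxia replicate. No difference or log2 change of a single gene recomputed under the alternatives changed sign, and the median of all genes moved by less than 0.1 on the log2 scale under each scaling.

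Same-numbered replicates did not deviate together, with correlations from -0.26 to 0.25. With a replicate block, 21 genes were higher and 25 lower in knockdown flies at 2% O2, and 11 were higher and 24 lower in control flies. Of all 9921 genes the block called 2842 higher and 2667 lower in knockdown flies, and 1528 higher and 1437 lower in control flies. At 6% O2 the block called 0 genes of the set in each direction in both genotypes. FPKM without read counts sets no limit of detection for the 37 genes below 5 FPKM.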
